A study of Mus musculus with 18 samples.

Results

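The diet by genotype interaction in mouse liver is the difference between 2 ethanol effects: the change from pair-fed to EtOH-fed mice in *Apoe* KO mice minus the same change in wild-type (WT) mice. It was taken gene by gene over all 15052 genes of the deposited table and all 18 of its mice, and genes were then sorted by whether the ethanol effect was reversed, lost or gained in the absence of *Apoe*. Liver RNA was sequenced from 9 WT mice, 4 pair-fed and 5 EtOH-fed, and from 9 *Apoe* KO mice, 5 pair-fed and 4 EtOH-fed (the latter numbered 1, 2, 4 and 5). All 18 mice were 10 to 12 weeks old and had 5 days of acclimation on liquid diet. For the next 10 days the EtOH-fed mice took ethanol at 5% (v/v) of the diet, with a gavage of 5 g/kg ethanol on day 11, pair-fed mice took an isocaloric diet and a gavage of 9 g/kg dextrin maltose, and livers were collected 9 h after the gavage. The *Apoe* KO is a purchased whole-body knockout with no further allele named, and the WT mice are C57BL/6J, so that a difference between genotypes cannot be assigned to hepatocyte or macrophage *Apoe*. The labels do not say whether the genotypes were littermates or shared cages.

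Apolipoprotein E is a lipoprotein ligand made mainly by hepatocytes and macrophages, and it carries remnant particles to receptors of the LDL receptor family. Its absence in mice raises plasma cholesterol carried on remnants. Ethanol is oxidised in hepatocytes by alcohol dehydrogenase and CYP2E1, and chronic-plus-binge feeding is known for steatosis and for activation or loss of resident macrophages, the Kupffer cells. An interaction asks a different question from a comparison of EtOH-fed genotypes, since a gene that differs between genotypes to the same degree in both diets has none.

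The knockout was visible in the table. *Apoe* itself lay between 611230 and 798431 normalised reads in the 9 WT mice and between 8586 and 108651 in the 9 *Apoe* KO mice, and its interaction was 0.61 ± 0.75 (adjusted p = 0.74). Normalised reads are the authors' read counts per gene scaled to a near-common total, 32267493 to 32292618 per mouse, and are called values here. The number of reads behind them was estimated from the spacing of low values and differed between groups. It was 5.60, 10.6, 29.1 and 19.2 M in pair-fed WT, 8.52 to 44.3 M in pair-fed *Apoe* KO, 45.9, 13.5, 7.88 and 8.39 M in the EtOH-fed *Apoe* KO group, and 24.6 to 52.2 M in the 3 EtOH-fed WT mice where it could be resolved. Mouse 1 of the EtOH-fed *Apoe* KO group was also unlike the others. All mice are labelled female, and this mouse had an *Xist* value of 826 against 15227 to 30379 in the other 17 and a *Ddx3y* value of 1077 against 2 to 118. The 8 hepatocyte markers were all measured and summed to at least 2518294 in every mouse. Whether mice with the same number shared a cage or a day is not stated, and p-values measure the spread between mice.

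The interaction passed an adjusted p of 0.05 in 428 of 15052 genes (2.84%), of which 392 (2.6%) were higher and 36 (0.239%) lower in *Apoe* KO than in WT mice. The ethanol effect alone passed in 2264 genes in WT (15%), 1189 higher (7.9%) and 1075 lower (7.14%), and in 3637 genes in *Apoe* KO mice (24.2%), 2567 higher (17.1%) and 1070 lower (7.11%), in the same fit. At an unadjusted p under 0.05 the interaction passed in 2451 genes (16.3%). The median interaction of the 392 higher genes was 1.56 and that of the 36 lower genes −0.93 on the log2(value + 1) scale, while the median of all genes was 0.11. With median-of-ratios size factors in place of the common total, that median moved by −0.14, and 378 genes passed, 294 higher and 84 lower, so that the share of higher calls went from 91.6% to 77.8%. The count depended on single mice. It was 167 without pair-fed WT mouse 4, 241 without pair-fed WT mouse 2, 266 without pair-fed *Apoe* KO mouse 3, 228 without EtOH-fed WT mouse 1, and 241 and 252 without EtOH-fed *Apoe* KO mice 4 and 5. Without EtOH-fed *Apoe* KO mouse 1 it was 479, and 364 of the 428 genes were among them.

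Most of the 428 genes had ethanol effects of opposite sign in WT and *Apoe* KO mice. This was so in 365 genes by the estimates, against 5177 of all 15052 genes tested. In 348 of the 365 the gene was lower with ethanol in WT and higher with ethanol in *Apoe* KO mice. The 428 genes were called for a difference between these same 2 effects, so these counts describe them and are no further test. By the tests of the ethanol effects, 271 genes were gained, meaning that the effect passed in *Apoe* KO only, 86 were lost, meaning that it passed in WT only, and 55 were reversed, meaning that it passed in both with opposite signs. The effect passed in both with the same sign in 10 genes, of which 7 had the larger effect in *Apoe* KO (amplified) and 3 the smaller (damped), and in 6 genes neither effect passed. Since each class uses the contrasts that make up the interaction, it describes the genes and is no further test. Among the 55 reversed genes, 54 were lower with ethanol in WT and higher in *Apoe* KO. Of the 86 lost genes, 73 had estimates of opposite sign, so lost does not mean that *Apoe* KO mice showed no ethanol effect. Of the 77 lost genes with a higher interaction, 41 had their highest group mean in pair-fed WT mice and 72 their lowest in EtOH-fed WT mice. Of the 249 gained genes with a higher interaction, 241 had their highest mean in EtOH-fed *Apoe* KO mice and 167 their lowest in pair-fed *Apoe* KO mice. Without EtOH-fed *Apoe* KO mouse 1 the interaction was called in 55 of the 55 reversed, 64 of the 86 lost and 238 of the 271 gained genes. The count of reversed genes was between 17 and 31 without pair-fed WT mouse 4 or 2 or EtOH-fed WT mouse 1 or 2. Lost genes numbered between 18 and 56 without any of pair-fed WT mice 2 and 4, pair-fed *Apoe* KO mice 1 and 3, EtOH-fed WT mice 1 and 2 and EtOH-fed *Apoe* KO mice 4 and 5. Gained genes numbered between 126 and 169 without pair-fed WT mouse 4, pair-fed *Apoe* KO mouse 3, EtOH-fed WT mouse 1 or EtOH-fed *Apoe* KO mouse 4 or 5.

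**Figure D1:**
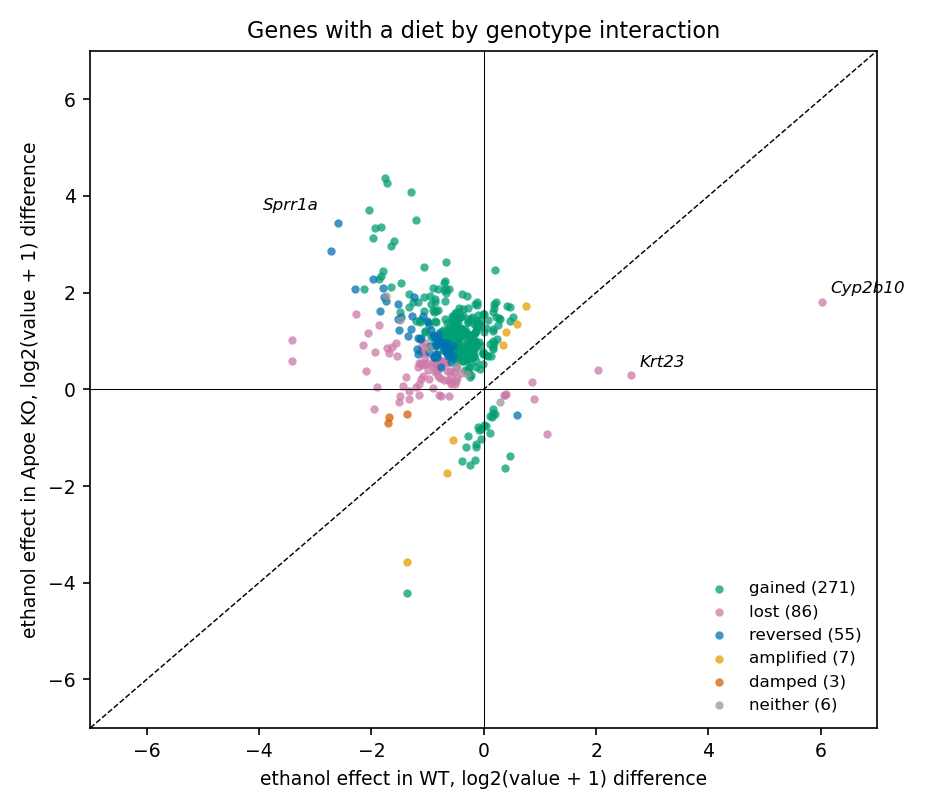
Ethanol effect in WT (x axis) against ethanol effect in *Apoe* KO mice (y axis), both as differences in mean log2(value + 1), for the 428 genes with an interaction, coloured by class, with the number of genes in each class in the key. The dashed line marks equal effects. Most points lie in the upper left, where 348 genes were lower with ethanol in WT and higher in *Apoe* KO, and *Cyp2b10* lies alone at the far right.

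Compared within each diet, *Apoe* KO and WT mice differed more after ethanol. In EtOH-fed mice 962 of 15052 genes differed between genotypes (6.39%), and in pair-fed mice 258 did (1.71%). Of the 428 genes, 306 differed between genotypes in EtOH-fed mice, 39 in pair-fed mice, 10 in both and 93 in neither. The pair-fed baseline still entered the interaction, since 359 of the 392 higher genes had a lower estimate in pair-fed *Apoe* KO than in pair-fed WT mice, and 388 had a higher one when the EtOH-fed genotypes were compared. The 392 genes were chosen on these same mice, so these signs describe them and are no further test.

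Sequencing depth ran along the interaction. The pair-fed WT and EtOH-fed *Apoe* KO groups, which both enter it with a plus sign, had the lowest median depths, 14.9 and 11.0 M reads against 23.9 M in pair-fed *Apoe* KO and 39.5 M in EtOH-fed WT mice. Over the 16 mice with a depth estimate 273 genes passed, 259 of them among the 428. When log2 of the estimated reads was added to that fit as a covariate, 7 genes passed (0.0465%), all of them among the 428. In the EtOH-fed *Apoe* KO group mouse 1, the mouse with low *Xist*, had 45.9 M reads and the others 7.88 to 13.5 M. Within that group depth and mouse 1 therefore cannot be told apart. An unadjusted p under 0.05 was seen in 1546 of all genes (10.3%). The median interaction of the 428 genes, which were chosen on mice that include these 16, was 1.32 with the covariate and 1.52 without it. When the 4 mice under 10 M reads were left out (pair-fed WT mouse 1, pair-fed *Apoe* KO mouse 1 and EtOH-fed *Apoe* KO mice 4 and 5), 18 genes passed, 14 of them among the 428. The mean centred level of the 392 genes was 0.40 in EtOH-fed *Apoe* KO mouse 1, which had 45.9 M reads, and 1.19 in mouse 4 of that group, which had 7.88 M reads. That level is a description, since the genes were chosen on the same mice.

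**Figure D2:**
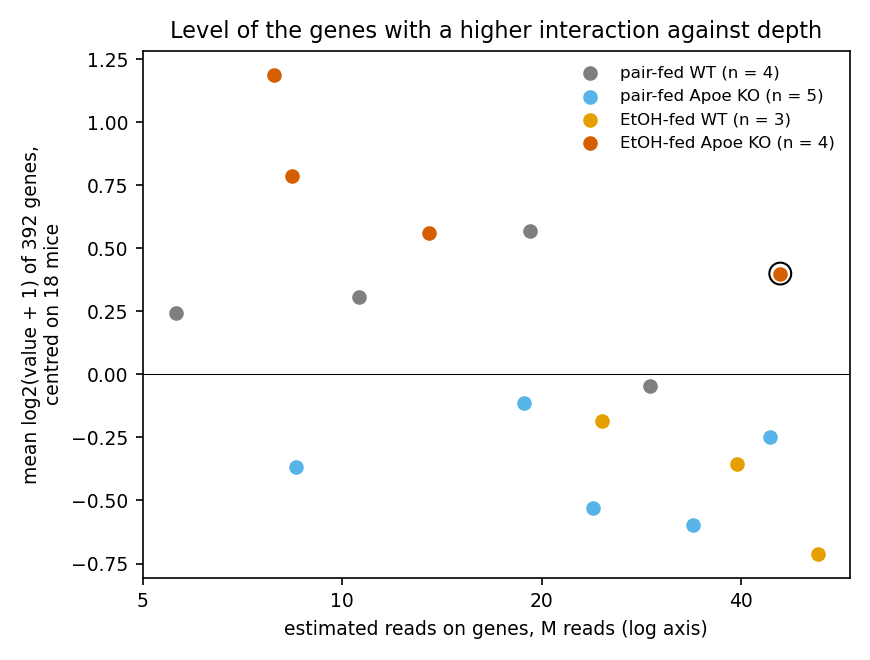
Mean log2(value + 1) of the 392 genes with a higher interaction, each gene centred on its mean over 18 mice (y axis), against estimated reads on genes in units of M reads (x axis, logarithmic), 1 point per mouse for the 16 mice with an estimate. The ringed point is EtOH-fed *Apoe* KO mouse 1. The 4 EtOH-fed *Apoe* KO mice lie at 0.40 or above at every depth, and pair-fed WT mouse 3 at −0.05.

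The 7 genes that passed with depth in the fit were *Pltp*, *Axl*, *Clec4f*, *Ucp2* and *Nudt18*, with a higher interaction, and *Cyp2b10* and *Krt23*, with a lower one. *Pltp* encodes phospholipid transfer protein, which moves phospholipid between lipoproteins. Its values were 2564, 2185, 2196 and 2552 (pair-fed) and 547, 627, 436, 613 and 566 (EtOH-fed) in WT mice and 713, 777, 708, 1112 and 1025 (pair-fed) and 1298, 919, 1101 and 1146 (EtOH-fed) in *Apoe* KO mice. Pair-fed WT mice were highest and EtOH-fed WT mice lowest, both without overlap with any other group, and the groups of *Apoe* KO mice lay between them and overlapped each other. Ethanol lowered *Pltp* in WT by a log2 difference of −2.09 (adjusted p = 3.70e-08), the effect in *Apoe* KO was 0.38 (adjusted p = 0.0607), and the interaction was 2.47 ± 0.20 (adjusted p = 1.07e-06). With depth in the fit it was 2.64, and without EtOH-fed *Apoe* KO mouse 1 it was 2.40.

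*Axl* and *Clec4f* are macrophage genes. *Axl* is a TAM receptor tyrosine kinase that binds *Gas6* on apoptotic cells, and in liver it marks Kupffer cells among others. Its values were 1135, 1199, 1000 and 1333 (pair-fed) and 613, 631, 603, 773 and 779 (EtOH-fed) in WT mice and 732, 826, 736, 978 and 1069 (pair-fed) and 1629, 1494, 2325 and 1573 (EtOH-fed) in *Apoe* KO mice. Every EtOH-fed *Apoe* KO mouse was above every mouse of the other groups, and the EtOH-fed WT mice were below all pair-fed WT mice. The ethanol effect was −0.78 in WT and 1.01 in *Apoe* KO mice (adjusted p = 9.90e-04 and 5.25e-05), and the interaction 1.79 ± 0.20 (adjusted p = 1.48e-04). *Clec4f*, a lectin found on Kupffer cells in mice, had values of 3492, 4522, 4174 and 5573 (pair-fed) and 1995, 3633, 2146, 2948 and 2833 (EtOH-fed) in WT mice and 2904, 2490, 2624, 2824 and 4441 (pair-fed) and 7486, 4129, 5486 and 6379 (EtOH-fed) in *Apoe* KO mice. EtOH-fed *Apoe* KO mice were above all EtOH-fed WT mice and overlapped the pair-fed WT mice. The *Clec4f* effect was reversed as well, from −0.73 in WT to 0.94 in *Apoe* KO mice, with an interaction of 1.67 ± 0.28 (adjusted p = 0.00478).

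*Ucp2*, a mitochondrial carrier of the uncoupling protein family, had values of 2380, 2523, 2560 and 2834 (pair-fed) and 1401, 1608, 2052, 1963 and 1556 (EtOH-fed) in WT mice and 1501, 1647, 1589, 2012 and 2028 (pair-fed) and 4278, 2287, 3684 and 2692 (EtOH-fed) in *Apoe* KO mice. Pair-fed *Apoe* KO and EtOH-fed WT mice shared the low range and were below all pair-fed WT mice. Its interaction was 1.45 ± 0.22 (adjusted p = 0.00329), from an ethanol effect of −0.60 in WT and 0.85 in *Apoe* KO mice. *Nudt18*, a hydrolase of oxidised nucleotides, had values of 398, 396, 386 and 519 (pair-fed) and 442, 496, 678, 415 and 413 (EtOH-fed) in WT mice and 356, 368, 309, 421 and 345 (pair-fed) and 1375, 1060, 1138 and 1061 (EtOH-fed) in *Apoe* KO mice. All EtOH-fed *Apoe* KO mice were above every other mouse. *Nudt18* was gained, with an effect of 1.68 in *Apoe* KO (adjusted p = 2.41e-07) and 0.19 in WT mice (adjusted p = 0.43).

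*Cyp2b10* had the most negative interaction of the genes named here. It encodes a cytochrome P450 that is a standard target of the nuclear receptor CAR, and it lies on chromosome 7 within 20 Mb of *Apoe*. Its values were 161, 91, 116 and 32 (pair-fed) and 3133, 4981, 20780, 6586 and 2731 (EtOH-fed) in WT mice and 455, 38, 120, 333 and 27 (pair-fed) and 125, 449, 512 and 907 (EtOH-fed) in *Apoe* KO mice. All EtOH-fed WT mice were above all other mice, and the EtOH-fed *Apoe* KO mice overlapped the pair-fed *Apoe* KO mice. The ethanol effect was 6.02 in WT (adjusted p = 2.09e-05) and 1.81 in *Apoe* KO mice (adjusted p = 0.0847), and the interaction −4.21 ± 1.06 (adjusted p = 0.0344), or −6.85 with depth in the fit. Without EtOH-fed *Apoe* KO mouse 1, whose 125 was the lowest value of its group, it was −3.65. *Krt23*, a keratin that rises in stressed hepatocytes, had values of 58, 33, 58 and 27 (pair-fed) and 134, 214, 310, 659 and 214 (EtOH-fed) in WT mice and 121, 73, 120, 124 and 53 (pair-fed) and 54, 134, 147 and 161 (EtOH-fed) in *Apoe* KO mice. Its ethanol effect was 2.63 in WT and 0.30 in *Apoe* KO mice, and the pair-fed *Apoe* KO mice were already above most pair-fed WT mice. The *Krt23* interaction was −2.33, or −3.57 with depth in the fit. Without EtOH-fed *Apoe* KO mouse 1, again the lowest of its group, it was −1.98. The *Cyp2b10* call was lost without pair-fed WT mice 2 or 4, pair-fed *Apoe* KO mice 1, 3 or 4, EtOH-fed WT mice 3 or 4 or EtOH-fed *Apoe* KO mice 1 or 4 (adjusted p at most 0.0991). The *Krt23* call was lost without pair-fed WT mice 2 or 4, pair-fed *Apoe* KO mice 1 or 3 or EtOH-fed *Apoe* KO mouse 1 (adjusted p at most 0.0857).

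**Figure D3:**
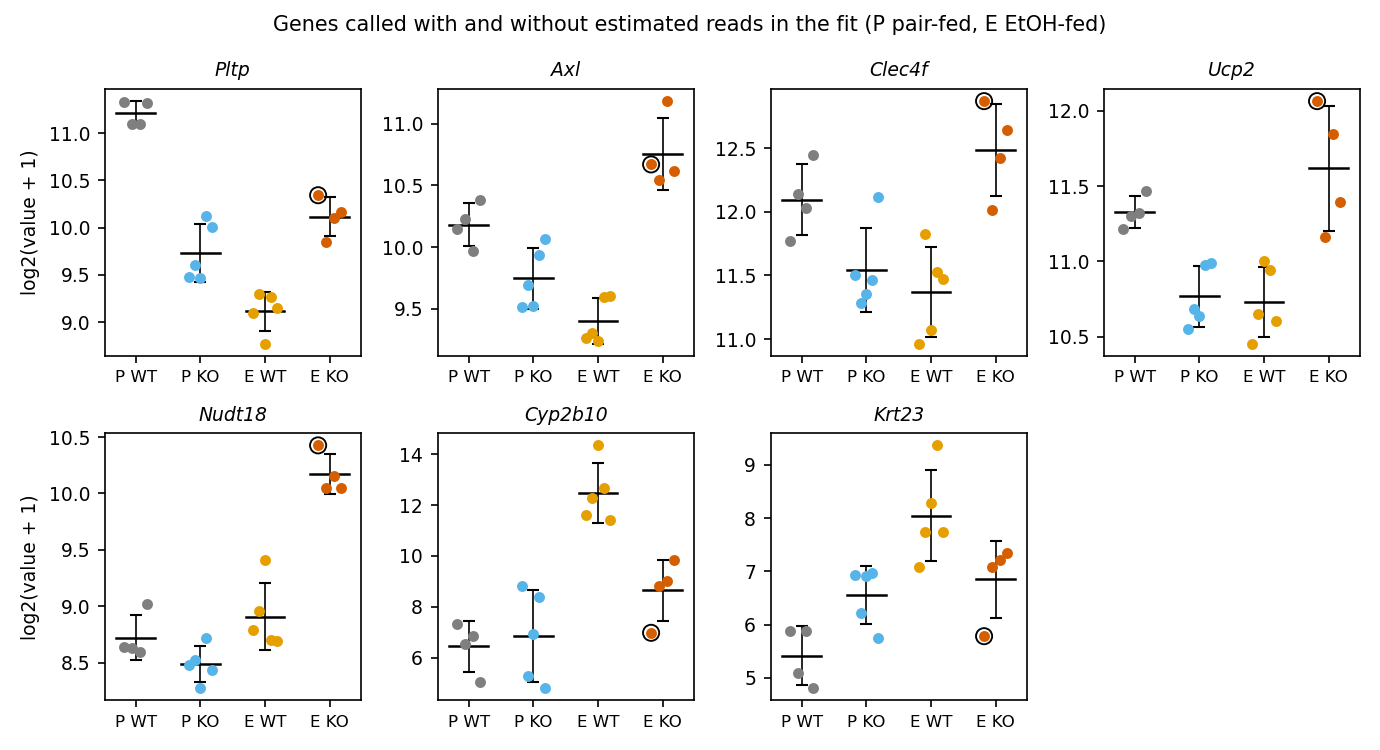
log2(value + 1) in each mouse (y axis) for the 7 genes that passed with and without estimated reads in the fit, with pair-fed (P) and EtOH-fed (E) WT and *Apoe* KO groups on the x axis. Points are mice, long lines are group means, bars are 1 SD, and the ring marks EtOH-fed *Apoe* KO mouse 1. In *Axl*, *Clec4f* and *Ucp2* the WT mice fall and the *Apoe* KO mice rise from P to E, in *Pltp* only the WT change passed the test, and *Cyp2b10* and *Krt23* rise mostly in WT.

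Among the reversed genes, the 6 with the largest interactions were *Sprr1a*, *Cdh17*, *Cdkn2a*, *Timp1*, *Phgdh* and *Emp1*, by the rule stated with the methods. *Sprr1a*, a squamous epithelial cross-linking protein induced on injury, had values of 144, 167, 111 and 222 (pair-fed) and 16, 18, 20, 76 and 22 (EtOH-fed) in WT mice and 23, 6, 5, 24 and 47 (pair-fed) and 84, 248, 274 and 177 (EtOH-fed) in *Apoe* KO mice. The groups with high values were pair-fed WT and EtOH-fed *Apoe* KO, and both were above all mice of the other groups. Its interaction was 6.04 ± 0.78 (adjusted p = 7.21e-04). *Timp1*, the secreted inhibitor of matrix metalloproteinases, had values of 46, 100, 47 and 138 (pair-fed) and 12, 13, 17, 43 and 33 (EtOH-fed) in WT mice and 23, 11, 28, 38 and 29 (pair-fed) and 37, 93, 229 and 158 (EtOH-fed) in *Apoe* KO mice, and its interaction was 3.88 ± 0.72 (adjusted p = 0.00714). Mouse 1 of the EtOH-fed *Apoe* KO group, with 37, was within the range of the EtOH-fed WT mice, and the other 3 were above them. By group means the others were also lower in pair-fed *Apoe* KO and EtOH-fed WT mice than in the other groups. *Cdh17*, an intestinal-type cadherin, had an interaction of 5.57 ± 1.12, *Cdkn2a*, the p16 and p19 cell cycle inhibitor locus, one of 4.24 ± 0.88, *Phgdh*, the first enzyme of serine synthesis, one of 3.57 ± 0.64, and *Emp1*, an epithelial membrane protein, one of 3.15 ± 0.58. With depth in the fit these 6 ranged from 1.81 (*Emp1*) to 5.07 (*Sprr1a*), with adjusted p of 0.0807 or more. Of the 55 reversed genes, 46 passed without any single mouse, and 55 passed without EtOH-fed *Apoe* KO mouse 1. The only reversed gene in the other direction was *Sdr9c7*, a short-chain dehydrogenase, at −1.13 ± 0.25 (adjusted p = 0.0191), and its call was lost without pair-fed WT mouse 4 (adjusted p = 0.0573).

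Lost genes with a higher interaction and a mean of at least 100 in a group were led, beside *Pltp*, by *Krt20*, *Dmbt1*, *S100a6*, *Krt19* and *Uhrf1*. That order is among those given here. *Krt19*, the keratin of bile duct epithelium, had values of 542, 460, 308 and 551 (pair-fed) and 95, 43, 111, 404 and 162 (EtOH-fed) in WT mice and 440, 121, 201, 239 and 146 (pair-fed) and 299, 418, 1273 and 450 (EtOH-fed) in *Apoe* KO mice. EtOH-fed WT mouse 4 stood with the pair-fed mice, and the other 4 were below all pair-fed WT mice. The ethanol effect was −1.86 in WT (adjusted p = 0.0132) and 1.32 in *Apoe* KO mice (adjusted p = 0.0526). The interaction was 3.18 ± 0.69 (adjusted p = 0.0156). *Krt20*, an intestinal and urothelial keratin, had an interaction of 4.43 ± 0.997, *Dmbt1*, a mucosal scavenger receptor protein, one of 4.002 ± 0.97, *S100a6*, a calcium-binding protein, one of 3.22 ± 0.79, and *Uhrf1*, which recruits maintenance DNA methylation, one of 2.70 ± 0.56. *Uhrf1* changed little with depth in the fit (2.67), whereas *S100a6* went to 1.26 and *Krt19* to 1.53. The 4 cholangiocyte markers measured, *Krt7*, *Krt19*, *Epcam* and *Sox9*, summed to 617 to 1153 (pair-fed) and 326 to 798 (EtOH-fed) in WT mice, and to 611 to 785 (pair-fed) and 687 to 2128 (EtOH-fed) in *Apoe* KO mice, and their part in the results was not tested. The *Krt20* call was lost without pair-fed WT mouse 4 or EtOH-fed *Apoe* KO mouse 4 (adjusted p at most 0.0514). That of *Dmbt1* was lost without pair-fed WT mice 1, 2 or 4, EtOH-fed WT mice 1 or 2 or EtOH-fed *Apoe* KO mouse 4 (adjusted p at most 0.0729). That of *S100a6* was lost without pair-fed WT mice 1, 2 or 4, pair-fed *Apoe* KO mice 2 or 3, EtOH-fed WT mouse 1 or EtOH-fed *Apoe* KO mice 4 or 5 (adjusted p at most 0.0831).

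Gained genes with a mean of at least 100 in a group were led by *Cldn18*, *Acan*, *Ighg2c*, *Prkg2* and *Tenm4*, among those given here. None of these is a typical hepatocyte gene. *Cldn18*, a tight junction protein of stomach and lung, had values of 63, 107, 75 and 131 (pair-fed) and 15, 3, 29, 77 and 34 (EtOH-fed) in WT mice and 30, 6, 3, 3 and 31 (pair-fed) and 27, 186, 348 and 173 (EtOH-fed) in *Apoe* KO mice. EtOH-fed *Apoe* KO mouse 1, with 27, was within the range of the EtOH-fed WT mice, and the other 3 were above every mouse of the other groups. The interaction was 5.76 ± 1.14 (adjusted p = 0.0112), and 6.51 without mouse 1. *Acan*, the cartilage proteoglycan aggrecan, had an interaction of 4.69 ± 1.13, *Ighg2c*, an immunoglobulin heavy chain constant region, one of 4.67 ± 1.05, *Prkg2*, a cGMP-dependent kinase, one of 4.25 ± 0.86, and *Tenm4*, a teneurin, one of 3.76 ± 0.86. In all 5, mouse 1 had the lowest value of the EtOH-fed *Apoe* KO mice and mouse 4 the highest. Mouse 4 had 7.88 M reads and mouse 1 45.9 M, and with depth in the fit the 5 interactions ranged from 2.25 to 3.89, with adjusted p of 0.232 or more. The *Acan* call was lost without pair-fed WT mice 2 or 4, pair-fed *Apoe* KO mouse 3, EtOH-fed WT mouse 1 or EtOH-fed *Apoe* KO mice 4 or 5 (adjusted p at most 0.084). That of *Ighg2c* was lost without pair-fed WT mouse 4 or EtOH-fed *Apoe* KO mouse 4 (adjusted p at most 0.0597). That of *Tenm4* was lost without pair-fed WT mouse 4 or EtOH-fed *Apoe* KO mouse 4 (adjusted p at most 0.0694).

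In few genes did both ethanol effects pass with the same sign and differ in size (7 amplified and 3 damped). *Acss2*, which makes acetyl-CoA from the acetate that ethanol oxidation yields, had values of 7180, 5925, 7936 and 5413 (pair-fed) and 2040, 1964, 2454, 1769 and 2010 (EtOH-fed) in WT mice and 2457, 3071, 2595, 3508 and 2319 (pair-fed) and 2170, 1742, 1572 and 2007 (EtOH-fed) in *Apoe* KO mice. Pair-fed WT mice were above all others, and the EtOH-fed groups overlapped. The fall was −1.68 in WT and −0.57 in *Apoe* KO mice, with an interaction of 1.11 ± 0.19 (adjusted p = 0.00571). *Rdh11*, a retinal reductase, was damped in the same manner, from −1.37 to −0.51. Both genes were lower in pair-fed *Apoe* KO than in pair-fed WT mice (−1.25 and −0.92, adjusted p = 1.84e-05 and 0.00124), and in EtOH-fed mice the genotypes gave −0.13 and −0.06. The amplified genes included *Nt5e*, the ectoenzyme CD73, with an ethanol effect of 0.40 in WT and 1.19 in *Apoe* KO mice. *Akr1c20*, an aldo-keto reductase, fell by 0.54 in WT and by 1.05 in *Apoe* KO mice. The *Rdh11* call was lost without pair-fed WT mouse 2 or EtOH-fed *Apoe* KO mouse 5 (adjusted p at most 0.0523). That of *Akr1c20* was lost without pair-fed WT mice 2 or 4 or EtOH-fed *Apoe* KO mouse 5 (adjusted p at most 0.0694). The 6 genes in which neither ethanol effect passed included *Hmga2*, a chromatin protein of fetal tissue, at 3.67 ± 0.99, *Anxa8*, an annexin, at 2.93 ± 0.76, and *Nr5a2*, a nuclear receptor of bile acid synthesis, at −0.55 ± 0.14. The *Hmga2* call was lost in 14 of 18 fits that left out 1 mouse, all but those without pair-fed WT mouse 3, pair-fed *Apoe* KO mouse 1, EtOH-fed WT mouse 4 or EtOH-fed *Apoe* KO mouse 1 (adjusted p at most 0.141). That of *Anxa8* was lost in 11 of 18 fits that left out 1 mouse, all but those without pair-fed WT mouse 3, pair-fed *Apoe* KO mouse 1, EtOH-fed WT mice 3, 4 or 5 or EtOH-fed *Apoe* KO mice 1 or 5 (adjusted p at most 0.114). That of *Nr5a2* was lost in 12 of 18 fits that left out 1 mouse, all but those without pair-fed WT mouse 3, pair-fed *Apoe* KO mice 4 or 5, EtOH-fed WT mice 3 or 5 or EtOH-fed *Apoe* KO mouse 2 (adjusted p at most 0.112).

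Of all gene lists, that of phagocyte genes had the largest share of called genes. Of 46 lists, 34 held at least 1 called gene and 12 held none. The share called is to be read against 2.84% of all genes. Some genes are in more than 1 list, so the counts of the lists are not separate. Genes that rose with ethanol made up 7.9% of all genes in WT and 17.1% in *Apoe* KO mice. Those that fell made up 7.14% and 7.11%. The list of phagocyte genes had 17 of 35 measured genes called (48.6%), all higher, with a median interaction of 1.24 against 0.11 over all genes. All 35 had a positive estimate, against 9344 of the 15052 genes tested. In the same list 11 genes fell with ethanol in WT and none rose, and 16 rose with ethanol in *Apoe* KO and none fell. The median was 1.31 in the 16 mice with a depth estimate and 1.50 with depth in the fit. With depth in the fit, 32 of the 35 had an unadjusted p under 0.05, against 10.3% of all genes. At an adjusted p under 0.05, 0 of the 35 passed in that fit. *Fcgr1*, the high-affinity receptor for IgG, had values of 225, 167, 157 and 276 (pair-fed) and 79, 109, 71, 111 and 76 (EtOH-fed) in WT mice and 209, 142, 142, 156 and 247 (pair-fed) and 363, 227, 418 and 269 (EtOH-fed) in *Apoe* KO mice. All EtOH-fed WT mice were below every other mouse, and the interaction was 2.01 ± 0.33 (adjusted p = 0.00443). *Cd14*, the endotoxin co-receptor, had 1.72 ± 0.37, *Spi1*, the myeloid transcription factor PU.1, 1.65 ± 0.36, *Fcer1g*, the common Fc receptor gamma chain, 1.56 ± 0.34, and *Tyrobp*, the adaptor DAP12, 1.55 ± 0.37. The calls of *Cd14*, *Spi1* and *Fcer1g* were each lost without pair-fed WT mouse 4 (adjusted p = 0.0505, 0.051 and 0.0506). That of *Tyrobp* was lost without pair-fed WT mice 2 or 4, EtOH-fed WT mouse 1 or EtOH-fed *Apoe* KO mice 4 or 5 (adjusted p at most 0.0738). Without EtOH-fed *Apoe* KO mouse 1 the interaction was called in 15 of the 35 phagocyte genes. It was called in 7 without pair-fed WT mouse 4, and in 10 or 11 without pair-fed WT mouse 2, pair-fed *Apoe* KO mouse 3, EtOH-fed WT mouse 1 or EtOH-fed *Apoe* KO mouse 4 or 5. In whole liver, more cells of a type and more RNA per cell cannot be told apart.

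In the Kupffer cell list 7 of 24 genes were called (29.2%), all higher, 4 without pair-fed WT mouse 4, and the list had a median interaction of 0.91, or 1.26 with depth in the fit. The 5 Kupffer cell markers used to check cell type, *Clec4f*, *Vsig4*, *Timd4*, *Marco* and *Cd5l*, were all measured and above 0 in every mouse. They summed to 7070 to 13025 (pair-fed) and 4297 to 8212 (EtOH-fed) in WT mice, and to 7337 to 14697 (pair-fed) and 10705 to 20653 (EtOH-fed) in *Apoe* KO mice. The EtOH-fed groups did not overlap in that sum. Of the 5 markers 2 were called, *Clec4f* and *Cd5l*, so the sum in part restates those calls. The *Cd5l* call was lost in 12 of 18 fits that left out 1 mouse (adjusted p at most 0.135). *C1qb*, a chain of the C1q recognition protein of complement, had values of 1394, 1808, 1323 and 2209 (pair-fed) and 782, 1188, 730, 1077 and 900 (EtOH-fed) in WT mice and 1141, 989, 1056, 1706 and 1753 (pair-fed) and 2746, 1785, 2845 and 2545 (EtOH-fed) in *Apoe* KO mice. All EtOH-fed *Apoe* KO mice were above all EtOH-fed WT mice, and the interaction was 1.76 ± 0.28 (adjusted p = 0.00403). *C1qa* and *C1qc*, the other chains of the same protein, were reversed with interactions of 1.65 ± 0.32 and 1.67 ± 0.31, and with depth in the fit the 3 chains gave 2.07, 1.92 and 1.94. *Cd163*, the haptoglobin-haemoglobin scavenger receptor, differed from these in its pattern, with values of 455, 609, 446 and 405 (pair-fed) and 327, 566, 315, 374 and 418 (EtOH-fed) in WT mice and 106, 138, 109, 203 and 94 (pair-fed) and 453, 212, 233 and 538 (EtOH-fed) in *Apoe* KO mice. Its low group was pair-fed *Apoe* KO, below all mice of the other groups, and its interaction was 1.67 ± 0.37 (adjusted p = 0.019). The C1q and TAM receptor list had 6 of 29 genes called (20.7%), and the list of monocyte-derived and lipid-associated macrophages 4 of 25 (16%), all higher, with 7 called without pair-fed WT mouse 3. The 7 markers of monocyte-derived macrophages used to check cell type held no called gene. They summed to 2784 to 5393 (pair-fed) and 1621 to 3439 (EtOH-fed) in WT mice, and to 3082 to 3856 (pair-fed) and 2676 to 8037 (EtOH-fed) in *Apoe* KO mice. Neutrophil genes gave no call among 10 measured of 26 listed, with a median of 0.73, and the 3 measured neutrophil markers summed to 156 to 432 (pair-fed) and 145 to 214 (EtOH-fed) in WT mice, and to 111 to 297 (pair-fed) and 154 to 377 (EtOH-fed) in *Apoe* KO mice.

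Genes of antigen presentation were called in 9 of 33 cases (27.3%), all higher. *H2-Aa*, the alpha chain of MHC class II I-A, had values of 1671, 1665, 1158 and 2204 (pair-fed) and 795, 854, 781, 1221 and 917 (EtOH-fed) in WT mice and 1058, 668, 945, 1287 and 856 (pair-fed) and 1169, 1637, 3169 and 1684 (EtOH-fed) in *Apoe* KO mice. Its ethanol effect was −0.86 in WT and 0.93 in *Apoe* KO mice, with an interaction of 1.78 ± 0.33 (adjusted p = 0.00714). *H2-Eb1*, a class II beta chain gene, gave 1.83 ± 0.37. *Cd74*, the invariant chain, gave 1.77 ± 0.31, and *H2-DMa*, which helps load peptide, 1.87 ± 0.35. These are class II genes of professional antigen-presenting cells. Without EtOH-fed *Apoe* KO mouse 1, 8 of the 33 genes were called, and the list median was 0.47, or 0.33 with depth in the fit.

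Interferon-stimulated genes were called in 11 of 56 cases (19.6%), all higher. Of the 56, 55 had a positive estimate, against 9344 of the 15052 genes tested. With ethanol, 23 of the 56 fell in WT and none rose, while 14 rose in *Apoe* KO and 1 fell. The list median was 0.74, or 0.47 with depth in the fit, and 14 genes were called without EtOH-fed *Apoe* KO mouse 1. The number was 5 without pair-fed WT mouse 4 and 6 or 7 without EtOH-fed WT mouse 1 or EtOH-fed *Apoe* KO mouse 4 or 5. *Oas3*, a sensor of double-stranded RNA that makes oligoadenylates, had values of 144, 131, 160 and 136 (pair-fed) and 41, 56, 47, 109 and 52 (EtOH-fed) in WT mice and 163, 79, 107, 137 and 136 (pair-fed) and 258, 222, 438 and 281 (EtOH-fed) in *Apoe* KO mice. All EtOH-fed *Apoe* KO mice were above every other mouse, and the interaction was 2.56 ± 0.38 (adjusted p = 0.00298). *Ifit3* and *Ifit2*, antiviral proteins with tetratricopeptide repeats, gave 1.33 ± 0.29 and 1.67 ± 0.33, *Slfn8*, a schlafen family member, 1.73 ± 0.37, *Ifi27l2a*, a small interferon-induced membrane protein, 1.67 ± 0.31, and *Gbp2b*, a guanylate-binding GTPase outside the list that was looked at after its values were seen, 2.16 ± 0.37. The *Ifit3* call was lost without pair-fed WT mouse 4 (adjusted p = 0.0513).

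Interferon acts on such genes through the element GAAANNGAAA in their promoters, and it was searched on both strands of the 300-base promoters of RefSeq (GRCm38.p6), which run from 250 bases before to 50 bases after the start of the gene. It was present in 1131 of 32851 promoters (3.44%) and, per gene, in 3.92% of the 10789 tested genes that matched by symbol. Among matched genes it was present in 6 of 44 reversed (13.6%), 3 of 66 lost (4.55%) and 15 of 194 gained genes (7.73%), and in 5 of the 10 called interferon-stimulated genes with a promoter. It was not counted in interferon-stimulated genes without a call, so the 5 of 10 cannot be tied to the call. The 6 reversed genes were *Cybb*, *Oas3*, *Slfn8*, *Ctss*, *Gbp2b* and *Ifit3*, of which *Oas3*, *Slfn8* and *Ifit3* are also in the interferon list. These are matches of letters and no evidence of binding. The 250 bases before the start are shown for 3 of them, chosen after their values were seen as well-known interferon targets, 5′ to 3′ in the direction of the gene, with the element in capitals. *Oas3* is at chr5:120777660-120777909 (minus strand), *Ifit3* at chr19:34583279-34583528 (plus strand) and *Gbp2b* at chr3:142594597-142594846 (plus strand).
Oas3: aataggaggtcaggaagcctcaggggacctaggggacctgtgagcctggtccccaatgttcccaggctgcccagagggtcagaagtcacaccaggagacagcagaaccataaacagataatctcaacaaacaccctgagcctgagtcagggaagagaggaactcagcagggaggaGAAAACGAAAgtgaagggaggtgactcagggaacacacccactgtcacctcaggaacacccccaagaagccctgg
Ifit3: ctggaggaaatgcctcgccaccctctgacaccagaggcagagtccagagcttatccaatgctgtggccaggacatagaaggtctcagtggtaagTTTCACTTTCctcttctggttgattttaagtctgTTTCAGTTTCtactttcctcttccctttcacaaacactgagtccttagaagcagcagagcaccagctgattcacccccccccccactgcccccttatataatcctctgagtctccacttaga
Gbp2b: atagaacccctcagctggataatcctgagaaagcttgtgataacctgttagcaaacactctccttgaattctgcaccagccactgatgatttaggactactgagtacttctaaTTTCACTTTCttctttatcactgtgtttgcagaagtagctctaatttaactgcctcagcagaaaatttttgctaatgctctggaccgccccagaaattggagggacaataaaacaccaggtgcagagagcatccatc
The element begins 75 bases before the start in *Oas3* and 137 bases before it in *Gbp2b*, and *Ifit3* holds 2 copies.

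Of 42 collagens and collagen-modifying enzymes, 10 were called (23.8%), all higher, and 9 of the 10 were gained. In the whole list 28 genes rose with ethanol in *Apoe* KO against 3 in WT mice. *Col1a1*, a chain of fibrillar type I collagen, had values of 1550, 1741, 967 and 2708 (pair-fed) and 840, 762, 1597, 1655 and 1151 (EtOH-fed) in WT mice and 1661, 1472, 1284, 2342 and 1162 (pair-fed) and 3256, 3903, 8331 and 4083 (EtOH-fed) in *Apoe* KO mice. All EtOH-fed *Apoe* KO mice were above every other mouse, and mouse 4 was the highest. The effect of ethanol was 1.57 in *Apoe* KO (adjusted p = 6.89e-04) and −0.51 in WT mice (adjusted p = 0.268), with an interaction of 2.08 ± 0.42. *Col3a1*, the other main fibrillar collagen of liver scars, gave 1.70 ± 0.34, *Col4a1*, a basement membrane collagen, 1.53 ± 0.24, *Col6a2*, a beaded filament collagen, 1.70 ± 0.31, and *Loxl2*, a collagen cross-linking oxidase, 1.91 ± 0.35. With depth in the fit these 5 ranged from 1.17 to 1.70, and the list median went from 0.99 in the same 16 mice to 0.75. Without EtOH-fed *Apoe* KO mouse 1, 9 of the 42 were called. Matricellular glycoproteins and proteoglycans were called in 9 of 46 cases (19.6%), with a median that went from 0.77 to 0.52. They numbered 14 without pair-fed WT mouse 3 and 4 or 5 without pair-fed WT mouse 4, EtOH-fed WT mouse 1 or EtOH-fed *Apoe* KO mouse 4. *Fbln2*, a fibulin of elastic fibres, had values of 455, 301, 229 and 528 (pair-fed) and 188, 107, 307, 287 and 318 (EtOH-fed) in WT mice and 178, 79, 76, 167 and 144 (pair-fed) and 299, 800, 1457 and 954 (EtOH-fed) in *Apoe* KO mice, with an interaction of 3.32 ± 0.56 (adjusted p = 0.00507). Its pair-fed *Apoe* KO values were below all pair-fed WT values, and EtOH-fed *Apoe* KO mouse 1 was within the EtOH-fed WT range.

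Enzymes that remodel matrix were called in 5 of 22 metalloproteinases and TIMPs (22.7%) and 5 of 12 genes of the plasminogen system (41.7%), all higher. Both counts were 3 without any of pair-fed WT mice 2 and 4, pair-fed *Apoe* KO mouse 3 and EtOH-fed WT mouse 1, the first also without EtOH-fed *Apoe* KO mouse 4, and the second also without pair-fed *Apoe* KO mouse 2 or EtOH-fed WT mouse 2 or 4. *Mmp3*, stromelysin 1, was listed at 0 in pair-fed *Apoe* KO mice 1 and 3, at 2, 5 and 7 in the other 3 and at 32, 55, 53 and 96 in EtOH-fed *Apoe* KO mice. Such low values rest on few reads, and its interaction of 6.13 ± 0.95 depends on the pseudocount. *Mmp12*, macrophage elastase, had values of 63, 40, 57 and 61 (pair-fed) and 38, 57, 37, 37 and 41 (EtOH-fed) in WT mice and 61, 45, 50, 64 and 37 (pair-fed) and 140, 253, 328 and 135 (EtOH-fed) in *Apoe* KO mice. All EtOH-fed *Apoe* KO mice were above every other mouse, and the interaction was 2.35 ± 0.40 (adjusted p = 0.00507). *Plau*, urokinase, gave 1.84 ± 0.39, and *Plat*, tissue plasminogen activator, gave 2.13 ± 0.54. *Anxa2* and *S100a10* are among the called genes both here and in the list of annexins and S100 partners, so those counts are not separate. The *Plat* call was lost without pair-fed WT mice 2 or 4, pair-fed *Apoe* KO mice 1, 2 or 3, EtOH-fed WT mice 1, 2 or 4 or EtOH-fed *Apoe* KO mouse 4 (adjusted p at most 0.0991). Stellate cell markers held 3 called genes of 26 (11.5%), with a median of 0.33. They held 6 without EtOH-fed WT mouse 3 and 5 without EtOH-fed *Apoe* KO mouse 1. The 6 stellate cell markers used to check cell type held none. They summed to 8190 to 11581 (pair-fed) and 8788 to 14955 (EtOH-fed) in WT mice, and to 7792 to 10415 (pair-fed) and 10806 to 16256 (EtOH-fed) in *Apoe* KO mice. Sinusoidal endothelial markers held none of 29, although 26 of them rose with ethanol in *Apoe* KO and 14 in WT mice.

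Lipid genes differed among themselves. *Plin2*, the coat protein of lipid droplets, had values of 17010, 21734, 20396 and 20239 (pair-fed) and 24904, 27712, 21644, 19056 and 18812 (EtOH-fed) in WT mice and 17680, 15270, 22173, 22332 and 13342 (pair-fed) and 37337, 55765, 39444 and 34632 (EtOH-fed) in *Apoe* KO mice. All EtOH-fed *Apoe* KO mice were above every other mouse, with an ethanol effect of 1.21 (adjusted p = 3.45e-05) against 0.17 in WT (adjusted p = 0.546) and an interaction of 1.04 ± 0.23, or 1.05 with depth in the fit. The *Plin2* call was lost with median-of-ratios size factors, at 0.90 (adjusted p = 0.0677), as were those of *Rdh11*, *Hmga2*, *Cd5l*, *Mvd* and *Mki67* among the genes named here (adjusted p of 0.0538 to 0.0781). *Hilpda*, another droplet protein, was gained at 1.56 ± 0.38. *Acacb*, the acetyl-CoA carboxylase of mitochondria, was lost at 1.21 ± 0.27, with a fall of −0.81 in WT. *Srebf1*, the transcription factor of lipogenesis, went the other way, with a fall of −0.65 in WT and −1.73 in *Apoe* KO mice and an interaction of −1.08 ± 0.29. In all, 6 of 34 genes of lipogenesis, triglyceride and lipid droplets were called (17.6%), 5 higher and 1 lower. They numbered 2 without pair-fed WT mouse 1, 2 or 4, 3 without EtOH-fed WT mouse 1 or EtOH-fed *Apoe* KO mouse 5, and 4 with median-of-ratios size factors. Of 25 genes of cholesterol synthesis, 19 fell with ethanol in WT and 14 in *Apoe* KO mice, and 1 had an interaction, *Mvd*, an enzyme of the mevalonate pathway, at 1.32 ± 0.34. The *Hilpda* call was lost without pair-fed WT mice 1, 2 or 4, pair-fed *Apoe* KO mouse 2, EtOH-fed WT mouse 1 or EtOH-fed *Apoe* KO mice 4 or 5 (adjusted p at most 0.0734). That of *Srebf1* was lost in 13 of 18 fits that left out 1 mouse, all but those without pair-fed WT mouse 3, pair-fed *Apoe* KO mice 2 or 5 or EtOH-fed WT mice 3 or 5 (adjusted p at most 0.135). That of *Mvd* was lost in 10 of 18 fits that left out 1 mouse, all but those without pair-fed WT mouse 1, pair-fed *Apoe* KO mice 2, 4 or 5, EtOH-fed WT mice 3 or 5 or EtOH-fed *Apoe* KO mice 1 or 2 (adjusted p at most 0.0964).

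**Figure D4:**
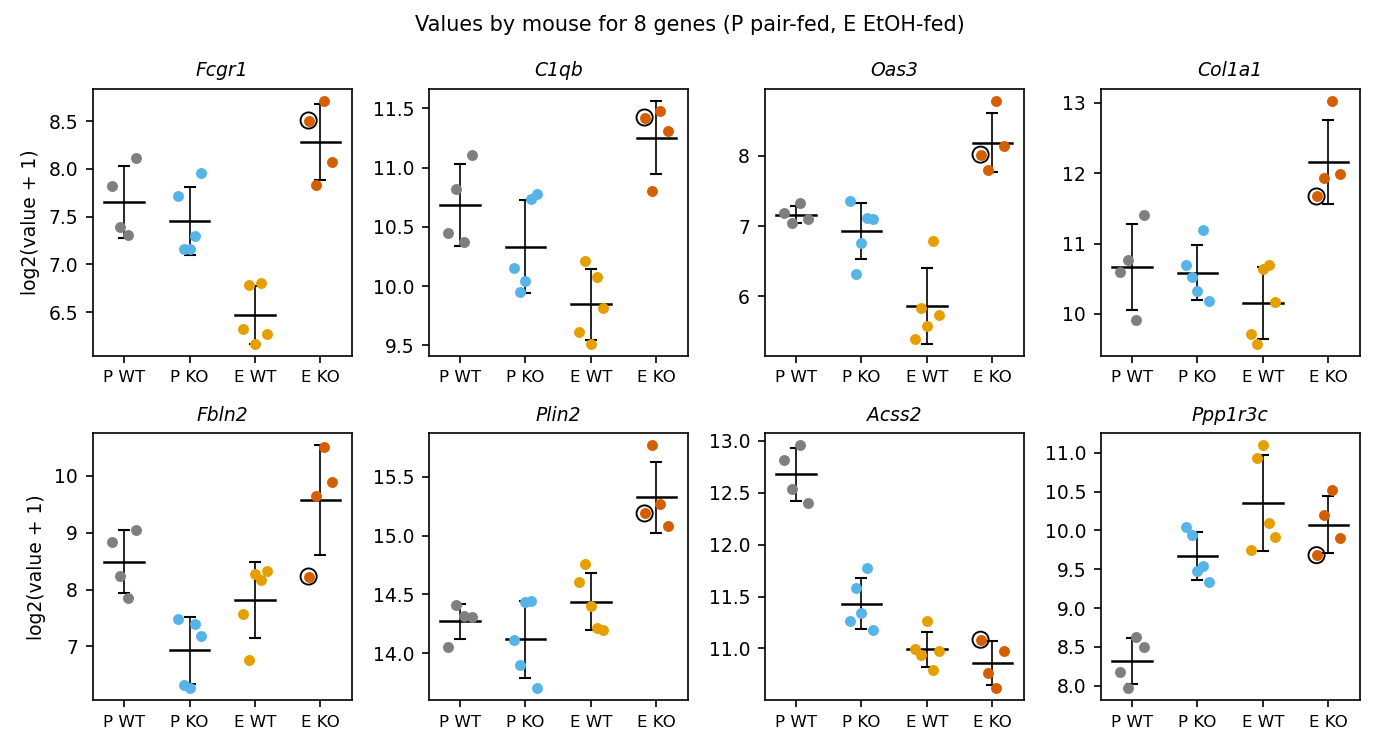
log2(value + 1) in each mouse (y axis) for 8 genes of the groups described, with pair-fed (P) and EtOH-fed (E) WT and *Apoe* KO groups on the x axis. Points are mice, long lines are group means, bars are 1 SD, and the ring marks EtOH-fed *Apoe* KO mouse 1. In *Fcgr1*, *C1qb* and *Oas3* the WT mice fall and the *Apoe* KO mice rise from P to E, in *Col1a1* and *Plin2* mainly the *Apoe* KO mice rise, and in *Acss2* the pair-fed WT mice stand above all others.

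The 36 genes with a lower interaction were of another kind. Of these, 25 had their highest group mean in pair-fed *Apoe* KO and 25 their lowest in EtOH-fed *Apoe* KO mice. *Gadd45g*, a stress-induced regulator of the cell cycle, had values of 933, 1427, 1209 and 735 (pair-fed) and 2691, 2591, 960, 1000 and 668 (EtOH-fed) in WT mice and 2578, 3516, 2949, 2058 and 4332 (pair-fed) and 716, 1034, 1044 and 1115 (EtOH-fed) in *Apoe* KO mice. Pair-fed *Apoe* KO mice were above all mice of the pair-fed WT and EtOH-fed *Apoe* KO groups, and the interaction was −2.003 ± 0.47 (adjusted p = 0.0232). Its call was lost without pair-fed WT mouse 4 (adjusted p = 0.071). *Ppp1r3c*, which targets protein phosphatase 1 to glycogen, had values of 288, 250, 396 and 361 (pair-fed) and 857, 1944, 2185, 1089 and 964 (EtOH-fed) in WT mice and 1058, 981, 709, 747 and 645 (pair-fed) and 820, 1172, 1466 and 954 (EtOH-fed) in *Apoe* KO mice. All pair-fed WT mice were below every other mouse, and ethanol raised it by 2.03 in WT and by 0.41 in *Apoe* KO mice, an interaction of −1.63 ± 0.35. In the same list of glucose and glycogen genes, *Hk1* and *Hk2*, hexokinases found mostly outside hepatocytes, were higher at 2.06 ± 0.37 and 1.56 ± 0.37, and 3 of 31 genes were called (9.68%). The *Hk2* call was lost without pair-fed WT mice 2 or 4, pair-fed *Apoe* KO mouse 3, EtOH-fed WT mouse 1 or EtOH-fed *Apoe* KO mice 4 or 5 (adjusted p at most 0.0744). Of 47 cytochrome P450 genes, 2 were called, *Cyp2b10* and *Cyp2c38*, both lower (4.26%). *Cyp2c38* had an interaction of −0.75 ± 0.20, and *Crp*, C-reactive protein, which is no strong acute-phase protein in mice, one of −0.67 ± 0.18. The *Cyp2c38* call was lost in 13 of 18 fits that left out 1 mouse, all but those without pair-fed WT mouse 1, pair-fed *Apoe* KO mouse 2, EtOH-fed WT mice 2 or 4 or EtOH-fed *Apoe* KO mouse 1 (adjusted p at most 0.137). That of *Crp* was lost in 14 of 18 fits that left out 1 mouse, all but those without pair-fed WT mouse 3, EtOH-fed WT mice 3 or 5 or EtOH-fed *Apoe* KO mouse 1 (adjusted p at most 0.116).

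Immunoglobulin and cell cycle genes made up further groups. Of 28 lymphocyte markers 4 were called (14.3%), all higher, with a median of 1.41, or 0.99 with depth in the fit. The count was 2 without any of pair-fed WT mouse 4, pair-fed *Apoe* KO mice 2 and 5, EtOH-fed WT mice 1 and 2 and EtOH-fed *Apoe* KO mice 4 and 5. *Ighm*, the IgM heavy chain, had values of 478, 493, 292 and 780 (pair-fed) and 137, 224, 277, 347 and 276 (EtOH-fed) in WT mice and 315, 120, 259, 290 and 294 (pair-fed) and 496, 473, 1032 and 700 (EtOH-fed) in *Apoe* KO mice, and an interaction of 2.40 ± 0.44 (adjusted p = 0.00714). EtOH-fed *Apoe* KO mice were above all mice of the pair-fed *Apoe* KO and EtOH-fed WT groups and overlapped the pair-fed WT mice. *Jchain*, the joining chain of polymeric IgM and IgA, gave 2.74 ± 0.59. The 5 markers of B and plasma cells used to check cell type were measured and above 0 in every mouse, and summed to 292 to 884 (pair-fed) and 198 to 430 (EtOH-fed) in WT mice, and to 147 to 320 (pair-fed) and 371 to 922 (EtOH-fed) in *Apoe* KO mice. The 4 measured markers of T and NK cells summed to 87 to 264 (pair-fed) and 76 to 109 (EtOH-fed) in WT mice, and to 49 to 98 (pair-fed) and 76 to 192 (EtOH-fed) in *Apoe* KO mice. Of 52 cell cycle genes 7 were called (13.5%), all higher. Their median was 1.25, or 1.18 with depth in the fit, and 15 fell with ethanol in WT and none rose. The count depended on single mice: it was 14 without pair-fed *Apoe* KO mouse 2 and 11 without EtOH-fed *Apoe* KO mouse 1, and 1 to 4 without any of pair-fed WT mice 2 and 4, pair-fed *Apoe* KO mice 1, 3 and 5, EtOH-fed WT mice 1, 3 and 5 and EtOH-fed *Apoe* KO mice 4 and 5. Median-of-ratios size factors left 4. *Top2a*, the topoisomerase of dividing cells, gave 2.002 ± 0.50, *Mki67*, the Ki-67 antigen, 1.73 ± 0.47, and *Bub1b*, a mitotic checkpoint kinase, 2.23 ± 0.56. The *Top2a* call was lost without pair-fed WT mice 1, 2 or 4, pair-fed *Apoe* KO mice 3 or 5, EtOH-fed WT mouse 1 or EtOH-fed *Apoe* KO mice 4 or 5 (adjusted p at most 0.0876). That of *Mki67* was lost in 14 of 18 fits that left out 1 mouse, all but those without pair-fed WT mouse 1, pair-fed *Apoe* KO mouse 4, EtOH-fed WT mouse 2 or EtOH-fed *Apoe* KO mouse 1 (adjusted p at most 0.138). That of *Bub1b* was lost without pair-fed WT mice 2 or 4, pair-fed *Apoe* KO mice 1 or 3, EtOH-fed WT mice 1 or 3 or EtOH-fed *Apoe* KO mice 4 or 5 (adjusted p at most 0.097). Annexins and their S100 partners were called in 8 of 19 cases (42.1%), all higher, with a median of 0.74, and numbered 3 to 5 without any of pair-fed WT mice 2 and 4, pair-fed *Apoe* KO mice 2 and 3, EtOH-fed WT mice 1 and 2 and EtOH-fed *Apoe* KO mice 4 and 5.

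**Figure D5:**
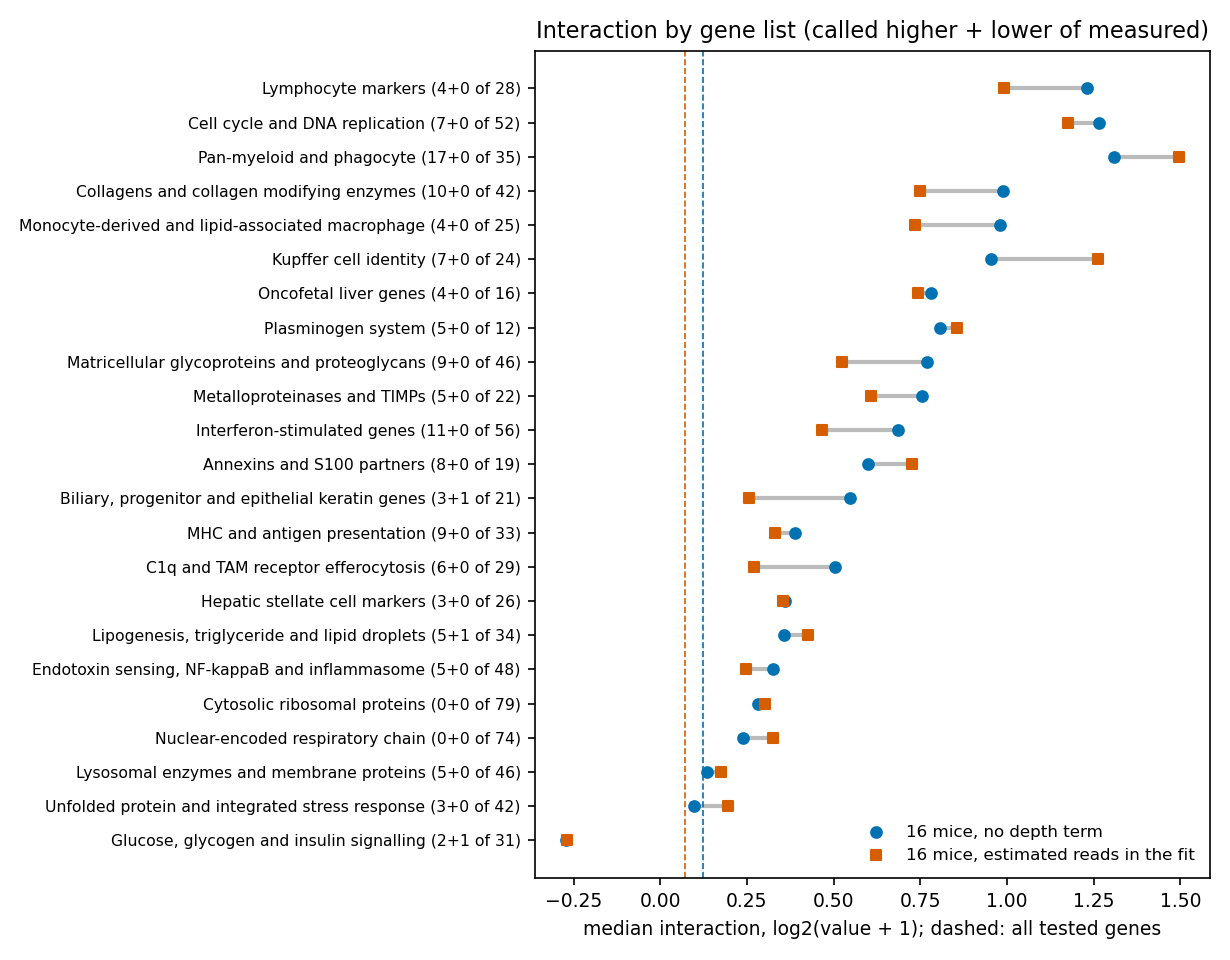
Median interaction (x axis, log2(value + 1)) of each list with at least 3 called genes and of the large lists of respiratory chain and ribosomal genes (y axis, with genes called higher plus lower of those measured in all 18 mice), in the 16 mice with a depth estimate, without (circles) and with (squares) estimated reads in the fit. Dashed lines are the medians of all 15052 genes, 0.12 and 0.07. The phagocyte and Kupffer cell medians are larger with depth in the fit (1.50 and 1.26), and those of collagens and interferon-stimulated genes are smaller (0.75 and 0.47).

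No gene was called in 12 lists. Among them were the NRF2 and glutathione genes (0 of 36), the methionine cycle and one-carbon enzymes (0 of 27), the urea cycle (0 of 23), pericentral hepatocyte genes (0 of 18), iron handling (0 of 26), heat shock chaperones (0 of 23), the nuclear-encoded respiratory chain (0 of 74) and the cytosolic ribosomal proteins (0 of 79). In the NRF2 list of 36 genes, 14 rose with ethanol in WT and 16 in *Apoe* KO mice, against 7.9% and 17.1% of all genes. The median interaction of that list was 0.10. These counts are of the limma test at an adjusted p of 0.05. With depth in the fit 5 of the 36 NRF2 genes had an unadjusted p under 0.05, against 10.3% of all genes.

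Genes close to *Apoe* had about the same share of interaction calls as the rest of the genome. Of 402 genes within 20 Mb of *Apoe* on chromosome 7, 10 had an interaction (2.49%), against 418 of 14650 genes elsewhere (2.85%). Between genotypes within a diet, the calls in that region numbered 29 of 402 genes (7.21%) against 229 of 14650 (1.56%) in pair-fed mice and 56 (13.9%) against 906 (6.18%) in EtOH-fed mice. *Igsf23*, an immunoglobulin superfamily gene of that region, had values of 23, 40, 30 and 27 (pair-fed) and 27, 25, 42, 24 and 25 (EtOH-fed) in WT mice and 209, 278, 450, 222 and 285 (pair-fed) and 852, 828, 749 and 600 (EtOH-fed) in *Apoe* KO mice. All *Apoe* KO mice were above all WT mice in both diets. *Igsf23* rose with ethanol in *Apoe* KO mice by 1.43 (adjusted p = 2.12e-04) and gave −0.07 in WT mice, an interaction of 1.50 ± 0.34 (adjusted p = 0.0189). *Axl* and *Cyp2b10*, described before, and *Tyrobp* lie in the same region, so that for these genes the *Apoe* deletion and sequence linked to it cannot be told apart.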

How the data were processed

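Liver RNA was extracted with TRIzol and poly(A) selected, and per the labels and methods the authors used Trimmomatic, HISAT2 on GRCm38, featureCounts and DESeq2, with versions not given in the sources used here. The authors deposited 1 table whose values per mouse are a signal, read counts per gene scaled to a near-common total (32267493 to 32292618) and rounded to whole numbers, and no count test was run on them. Their columns of mean, log2 fold change, standard error and p-values were not used. The table holds 15247 entries for 15052 Ensembl identifiers, and each identifier was used once. Of these, 15040 were placed in GENCODE release 21 of GRCm38 and 12 were not. The smallest mean value is 12.1, so lower genes had been left out before deposit, for a reason not given in the sources used here. How the authors counted reads shared by near-identical genes is not given either, which leaves values of H2, immunoglobulin, *Ifit3*, *Slfn8*, *Gbp2b*, *Cyp2b10*, *Cyp2c38* and *Akr1c20* uncertain to that degree.

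limma 3.58.1 in R 4.3.3 was fitted to log2(value + 1) over 4 group means and all 18 mice, moderated by empirical Bayes with a trend on intensity, and p-values were adjusted by Benjamini-Hochberg over the 15052 genes. Fold changes of low genes are understated on that scale. The gene classes, lists and markers were chosen with earlier results of these data known. Single genes were named as up to 6 per class with the largest interaction, a mean of at least 100 in a group, a symbol that is not provisional and a call without EtOH-fed *Apoe* KO mouse 1, up to 6 called genes per list or near *Apoe*, and *Apoe*, *Xist*, *Ddx3y*, *Axl* and *Cyp2b10*. Reads per mouse were estimated from the spacing of low values and resolved in 16 of 18 mice. In pair-fed WT mouse 1, 1 read stood for 5.76 units, against 0.618 units in EtOH-fed WT mouse 1, so low values of the shallow mice are coarse. The fits were tested on simulated data. Some genes that the rule picks are not reported here.

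The alternatives tried were size factors by median of ratios, a mean value of at least 50, a pseudocount of 10, sample quality weights, the mouse number as a block, no intensity trend and leaving out each mouse. After the depths were seen, the 16 mice with an estimate, log2 of the estimated reads as a covariate, and leaving out the 4 mice under 10 M reads were added. Mice with the same number in different groups are different animals, and their deviations from the group means correlated at −0.217 to 0.322 over 24 pairs (median 0.0245). Promoter sequences are those of RefSeq on GRCm38.p6.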

Additional observations from a re-analysis of the deposited data

Results flagged for a closer look

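The ethanol effect differed between *Apoe* KO and WT mice, by the test of the interaction itself, in 55 reversed, 86 lost, 271 gained, 7 amplified, 3 damped and 6 further genes in which neither effect passed alone.

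Of 328 groups of values, 4 for each of 82 genes, 19 held a mouse whose gap to its nearest neighbour took an unusually large share of the group's range on the log2(value + 1) scale, where chance gives about 1 in 20, or 16.4. EtOH-fed *Apoe* KO mouse 1 was the low mouse of its group for *Apoe* (gap 0.855 of the range), *Xist* (0.917), *Krt23* (0.831) and *Gadd45g* (0.83), and mouse 4 of that group was the high mouse for *Col3a1* (0.84). EtOH-fed WT mouse 4 was high for *Sprr1a* (0.8), *Dmbt1* (0.734) and *Vcan* (0.892) and low for *Rdh11* (0.749). EtOH-fed WT mouse 2 was low for *Acan* (0.716) and high for *Mmp12* (0.763), and EtOH-fed WT mouse 3 was low for *Bub1b* (0.731) and high for *Igsf23* (0.791). Pair-fed WT mouse 4 was high for *Nudt18* (0.897) and *Hmga2* (0.858). In pair-fed *Apoe* KO mice, mouse 5 was high for *Clec4f* (0.734) and low for *Acacb* (0.733), and mouse 2 was low for *Cdh17* (0.773) and *Ighm* (0.797).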

How the results depend on the processing

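All 79 named genes with an interaction kept its direction in every alternative run, and 47 were called whichever mouse was left out. The naming rules use the call, and the alternatives reuse the same mice. The kept direction therefore describes these genes and is no further test. Of the 79, 6 were no longer called with median-of-ratios size factors, 1 with a mean value of at least 50, 0 with a pseudocount of 10, 4 with quality weights, 18 without the intensity trend, 15 in the 16 mice with a depth estimate and 72 when depth was added to that fit. Leaving out the 4 mice under 10 M reads also ended 72 calls. Genes with a lower interaction numbered 84 with median-of-ratios size factors, 62 with quality weights and 17 without the intensity trend, which also left 49 lost genes. The 16 mice gave 273 genes (247 higher), 22 reversed and 41 lost genes, and 1359 genes with an ethanol effect in WT. With depth in that fit there were 7 genes (5 higher, 2 lower), 2 reversed, 3 lost and 2 gained genes, and 981 with an ethanol effect in WT. Without the 4 shallow mice, which leaves 2 EtOH-fed *Apoe* KO mice, there were 18 genes (16 higher, 2 lower), 3 reversed, 2 lost and 12 gained genes, and 1684 with an ethanol effect in *Apoe* KO. These fits also have fewer mice or 1 more term.

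Leaving out 1 mouse gave 167 to 561 genes, 157 to 506 higher, 10 to 55 lower, 17 to 73 reversed, 18 to 111 lost and 126 to 349 gained, with the extremes from pair-fed WT mice 4 and 3. Ethanol effects numbered 1641 to 2431 in WT and 2784 to 3766 in *Apoe* KO mice. With the mouse number as a block 575 genes were called, 407 of them among the 428, and 91 were reversed. The labels do not say that a number is shared, and 10 of 18 mice correlated best with a mouse of their own number.

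Depth limits the low genes most. In the 4 mice under 10 M reads 1 read stands for 3.79 to 5.76 units, and depth, genotype and diet are partly confounded, so that their parts in the interaction cannot be told apart in these mice.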
